A study of Mus musculus with 6 samples.

Results

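The insulin-like growth factor (IGF) genes described here are the 2 growth factors Igf1 and Igf2, the 2 receptors Igf1r and Igf2r, and the 6 binding proteins Igfbp2 to Igfbp7. They were chosen by name as a gene family, and Igfbp7 was selected on its values, because its signal differed from vehicle in opposite directions under the 2 treatments. The 10 genes had 28 probe sets annotated to 1 of them alone, out of 18193 genes and 45037 probe sets on the array, and 1 more probe set annotated to Igf2r and Airn together was left out. RNA was measured in As4.1, a mouse tumour cell line that serves as a model of the renin-producing cells of the kidney. The 3 groups were cells given vehicle, cells given hydrogen peroxide (an oxidant) and cells given an interleukin (an immune cytokine), each with 2 arrays. The labels number these arrays 1 and 2 without saying whether they come from separate cultures, and each array is called a culture below. If they do not, the spread between them leaves out variation between cultures. The labels do not say which interleukin was used, nor any dose or time, and all groups come from this 1 cell line. Each value below is a MAS5 signal, a linear brightness per probe set that cannot be set against the signal of another probe set or gene.

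IGF-I and IGF-II are secreted peptides that promote growth and survival by activating the IGF-I receptor, a tyrosine kinase that signals through insulin receptor substrates to PI3 kinase, Akt and mTOR. The IGF-II receptor, which is also the mannose 6-phosphate receptor, takes up IGF-II and delivers it to lysosomes. Binding proteins hold the growth factors in the fluid around cells, and proteases such as pappalysin release them by cutting the binding protein. IGFBP7 binds IGFs weakly and is known mainly as a secreted matrix-associated protein. In the kidney IGF-I is known as a growth factor that raises blood flow and filtration.

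Promoter sequences are shown for Igf1, Igfbp4 and Igfbp7 because the results below turn on these 3 genes. Each is the 300 bases around a RefSeq start site in the mouse build GRCm38.p6, read along the strand of the gene, with any match to a searched motif in capitals. The Igf1 window is chr10:87860861-87861160 on the plus strand, and its listed start lies inside the annotated span of the gene (chromosome 10, 87858265 to 87937047). The Igfbp4 window is chr11:99040994-99041293 on the plus strand, also inside its gene (chromosome 11, 99040005 to 99052655). The Igfbp7 window is chr5:77407996-77408295 on the minus strand, at the start of the gene (chromosome 5, 77349240 to 77408045).
Igf1: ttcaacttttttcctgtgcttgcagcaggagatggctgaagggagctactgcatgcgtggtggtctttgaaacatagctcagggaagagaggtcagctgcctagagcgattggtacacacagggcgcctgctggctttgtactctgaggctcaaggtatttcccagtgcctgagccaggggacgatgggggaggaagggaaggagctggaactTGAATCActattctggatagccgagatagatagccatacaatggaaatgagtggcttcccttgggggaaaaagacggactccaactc
Igfbp4: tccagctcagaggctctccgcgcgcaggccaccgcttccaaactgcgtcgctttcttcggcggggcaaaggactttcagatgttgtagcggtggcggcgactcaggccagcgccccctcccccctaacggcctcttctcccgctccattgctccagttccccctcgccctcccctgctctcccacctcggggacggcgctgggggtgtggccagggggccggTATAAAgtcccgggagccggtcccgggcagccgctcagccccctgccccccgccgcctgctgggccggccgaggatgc
Igfbp7: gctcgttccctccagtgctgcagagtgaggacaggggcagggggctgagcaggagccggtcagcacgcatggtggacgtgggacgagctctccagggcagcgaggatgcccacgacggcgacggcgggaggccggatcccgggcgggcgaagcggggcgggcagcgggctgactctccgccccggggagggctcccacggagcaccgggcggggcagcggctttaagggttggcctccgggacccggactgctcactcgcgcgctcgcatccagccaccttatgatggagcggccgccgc
The capitals in Igf1 are a match to TGANTCA, the pattern searched for AP-1, at position -37 from the start site. Its N stands for any base, here A, so the match is to this loose pattern only. The capitals in Igfbp4 are a TATA box, TATAAA, at position -28. The Igfbp7 window held no match to any of the 6 motifs searched on both strands, which says only that these letters are not in this window. The other 4 motifs were NF-kappaB, the antioxidant response element TGACNNNGC, FoxO (TGTTTAC) and C/EBP (TTGCNNAA). Of 32851 mouse promoter windows of the same length, 7.81% held the AP-1 motif, 13.6% the TATA box, 8.46% NF-kappaB, 12.4% the antioxidant response element, 3.65% FoxO and 10.8% C/EBP. Among the 14 windows listed for the 10 genes, the TATA box matched 2 (Igfbp4 and Igfbp6), AP-1 2 (Igf1 and Igfbp2), the antioxidant response element 2 (Igf2 and Igfbp2), NF-kappaB 1 (Igfbp5), and FoxO and C/EBP 0. The GC content was 52.3% in the Igf1 window, 71.3% in Igfbp4 and 73.3% in Igfbp7.

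Of the 28 probe sets, 25 passed the filter on low signal and entered the comparison across all 22519 tested probe sets. The 3 that did not were the only probe set of Igfbp2, the second of Igf2 and the third of Igfbp7. Igfbp7 is given as a description with no test, which leaves 23 tested probe sets of 8 genes. Under interleukin 5 of the 23 were called lower than vehicle at an adjusted p under 0.05, 0 were called higher and 18 were not called, and at an unadjusted p under 0.05 there were 7 lower and 2 higher. Over all tested probe sets 8.52% were called lower and 7.58% higher in that comparison, 16.1% in all. Under hydrogen peroxide 10 of the 23 were called lower, 0 higher and 13 were not called, against 16 lower and 1 higher unadjusted, where 2.65% of all tested probe sets were called lower, 3.05% higher and 5.69% in all. That background split of 686 higher and 596 lower became 602 and 879 when arrays were centred on the 75th percentile. Between the treatments 6 of the 23 were called higher under interleukin than under hydrogen peroxide, 0 lower and 17 were not called, against 8 higher and 1 lower unadjusted. The background there was 4.95% higher, 3.87% lower and 8.82% in all. The median log2 change of the 23 was -0.10 under interleukin (-0.02 over all tested probe sets), -0.62 under hydrogen peroxide (0.02 over all) and 0.22 between the treatments (-0.05 over all). Probe sets of one gene share its transcripts, so these counts do not stand for separate genes, and since the genes were chosen with results known, nothing is read from the counts about the family.

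**Figure D1:**
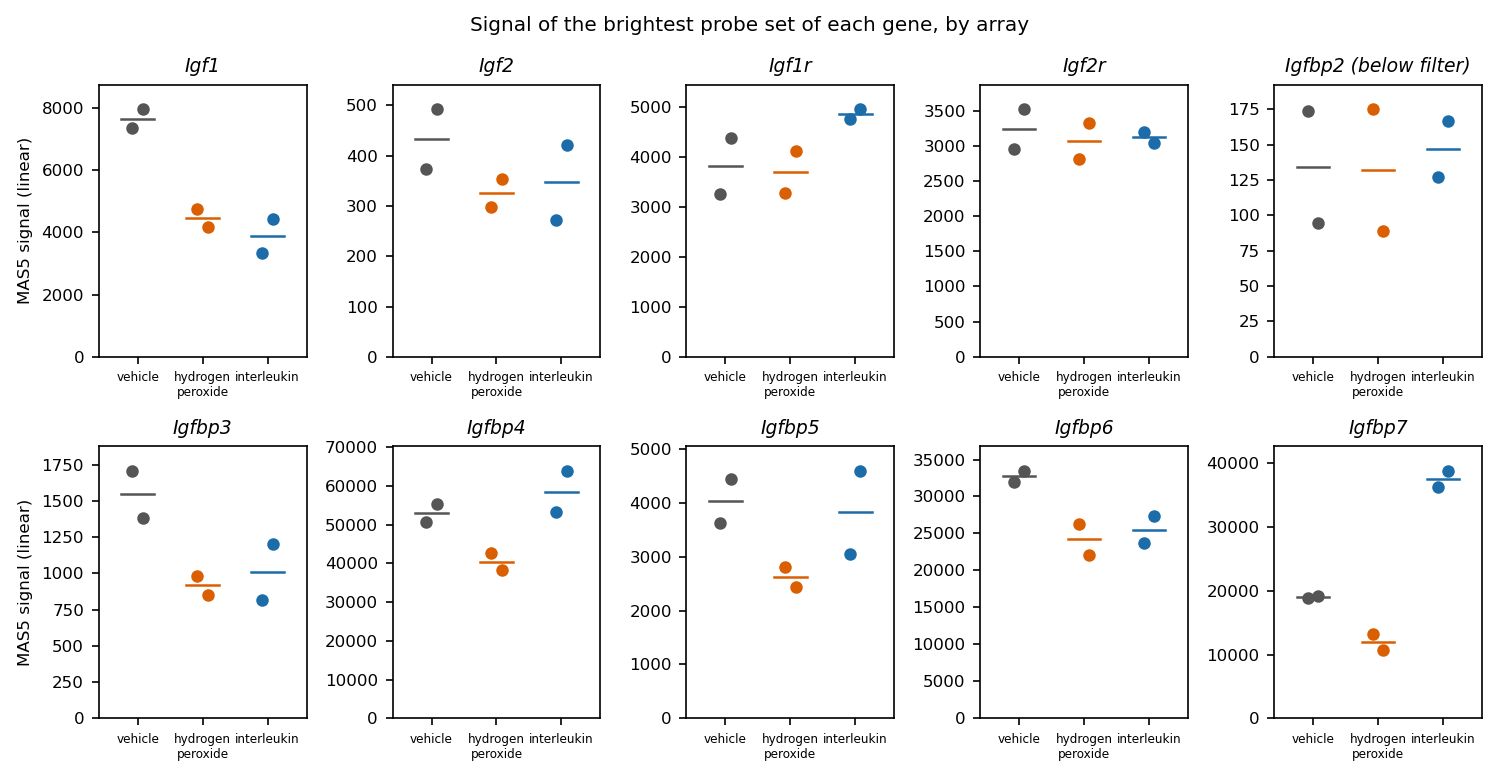
MAS5 signal (linear axis from 0) of the brightest probe set of each of the 10 genes on the 6 arrays, with 1 point per culture and a line at the mean of each group. The hydrogen peroxide and interleukin cultures lie below both vehicle cultures for Igf1, Igfbp3 (not called) and Igfbp6, and Igfbp7 lies above vehicle under interleukin and below it under hydrogen peroxide.

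Igf1, which encodes the ligand of the IGF-I receptor, fell under both treatments on all 4 of its probe sets. On the brightest of them, 1452014_a_at, the signal was 7360 and 7965 in the vehicle cultures, 4769 and 4176 under hydrogen peroxide and 3333 and 4435 under interleukin. Both treatments lay below vehicle with no overlap, while the treated groups overlapped each other. The means were 7662 ± 428 (SD, n = 2) for vehicle, 4473 ± 419 (SD, n = 2) for hydrogen peroxide and 3884 ± 779 (SD, n = 2) for interleukin. Against vehicle the log2 change was -0.99 ± 0.14 (SE) under interleukin (adjusted p = 0.00121, limma), 50.2% of vehicle, and -0.78 ± 0.14 under hydrogen peroxide (adjusted p = 0.0128), 58.3% of vehicle. In this bulk RNA less Igf1 RNA per cell and fewer cells that make it cannot be told apart.

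The other Igf1 probe sets moved the same way. On 1419519_at the signal was 4706 and 4850.4 in vehicle, 2300.5 and 2468 under hydrogen peroxide, and 1690 and 2145 under interleukin, so that interleukin was lowest and no group overlapped another. It gave the largest Igf1 change under interleukin, -1.33 ± 0.14 (adjusted p = 0.00017), or 39.8% of vehicle, and -1.00 ± 0.14 under hydrogen peroxide (adjusted p = 0.00383), or 49.9%. On 1434413_at the changes were -1.01 under interleukin (adjusted p = 0.00217) and -0.83 under hydrogen peroxide (adjusted p = 0.016), and on 1437401_at -0.88 (adjusted p = 0.00682) and -1.01 (adjusted p = 0.00985). The 2 treatments were not told apart on any Igf1 probe set: interleukin against hydrogen peroxide gave -0.32 (95% interval -0.63 to -0.01, adjusted p = 0.191) on 1419519_at and 0.12 (-0.26 to 0.51, adjusted p = 0.724) on 1437401_at, the lowest and highest of the 4. Leaving out 1 array leaves its group with a single culture, whose spread is then taken from the other groups. The hydrogen peroxide call held on 1419519_at whichever of the 4 compared arrays was left out (adjusted p up to 0.0473), whereas the other 3 lost it in 3 or 4 of 4 such fits. Those adjusted p were 0.0723 to 0.137 without vehicle culture 1, 0.0571 to 0.116 without vehicle culture 2, 0.0686 and 0.0823 without hydrogen peroxide culture 1 (1437401_at and 1434413_at) and 0.0593 and 0.0708 without culture 2 (1434413_at and 1452014_a_at). Under interleukin 1 of the 4 calls was lost, that of 1437401_at without vehicle culture 2 (0.0539). Without a trend of the spread on signal in the fit, all 4 hydrogen peroxide calls (adjusted p 0.074 to 0.121) and the interleukin call on 1437401_at (0.0682) were lost.

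Igf2, the second growth factor, was dim and was not called in any comparison. Its tested probe set, 1448152_at, read 372.5 and 492 in vehicle, 298 and 353 under hydrogen peroxide and 273 and 421 under interleukin. Its log2 change was -0.34 under interleukin (95% interval -1.02 to 0.34, adjusted p = 0.504) and -0.40 under hydrogen peroxide (-1.08 to 0.28, adjusted p = 0.487). The other probe set, 1415931_at, lay below the filter, between 7 and 101 on the 6 arrays.

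No receptor probe set was called. Igf1r, the signalling receptor for both ligands, had 5 probe sets that did not move alike. The brightest, 1452982_at, read 3260 and 4376 in vehicle, 3283 and 4125 under hydrogen peroxide, and 4762 and 4957 under interleukin. The interleukin cultures were above the others, by 0.36 on the log2 scale against vehicle (95% interval 0.01 to 0.71, adjusted p = 0.152), and the hydrogen peroxide cultures overlapped vehicle, with a difference of -0.04 (-0.39 to 0.31, adjusted p = 0.921). On 1426565_at both treatments were above vehicle without overlap, at 1340.2 and 1476 in vehicle, 1812 and 1859 under hydrogen peroxide and 1726 and 1878 under interleukin (0.38, adjusted p = 0.136, and 0.36, adjusted p = 0.113). A dimmer probe set, 1452108_at, pointed the other way, at 385 and 436 in vehicle, 105 and 210 under hydrogen peroxide and 190 and 240.5 under interleukin. Its changes were -1.46 ± 0.40 under hydrogen peroxide (adjusted p = 0.0606) and -0.94 ± 0.40 under interleukin (adjusted p = 0.144). The former passed the threshold after quantile normalization (adjusted p = 0.0478), after centring on the 75th percentile (0.0419) and without hydrogen peroxide culture 2 (0.0363). Igf1r probe sets 1428967_at and 1446303_at overlapped between vehicle and both treatments. Igf2r, the scavenging receptor, had 2 probe sets. On 1424112_at the differences from vehicle were -0.05 under interleukin (95% interval -0.35 to 0.25, adjusted p = 0.847) and -0.08 under hydrogen peroxide (-0.38 to 0.23, adjusted p = 0.796). On 1424111_at they were 0.25 (-0.05 to 0.56, adjusted p = 0.252) and 0.13 (-0.18 to 0.44, adjusted p = 0.638).

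**Figure D2:**
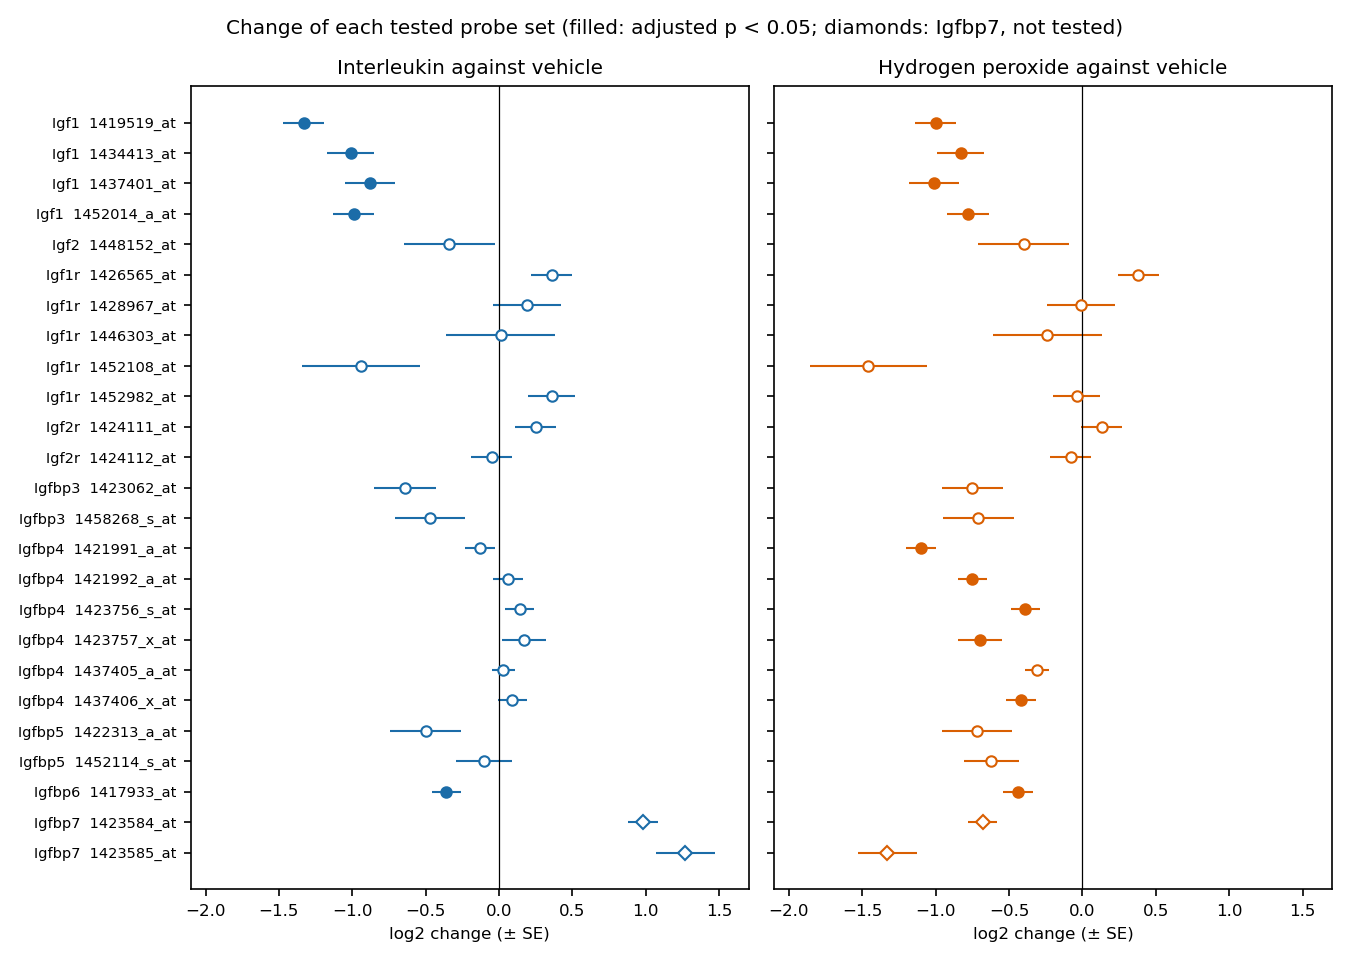
Log2 change against vehicle (horizontal axis, bars ± SE from limma) of the 25 tested probe sets under interleukin and hydrogen peroxide, with filled points for an adjusted p under 0.05 and open diamonds for Igfbp7, which is described without a test. The 4 Igf1 probe sets and the 1 of Igfbp6 are filled to the left of 0 in both panels, and Igfbp4 is filled under hydrogen peroxide, on 5 of 6 probe sets.

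Igfbp4, an inhibitory binding protein that pappalysin cuts in an IGF-dependent way, fell under hydrogen peroxide and was not called under interleukin. On 1421991_a_at the signal was 18179 and 16692 in vehicle, 8620.1 and 7683 under hydrogen peroxide, and 15308 and 16472 under interleukin. The hydrogen peroxide cultures lay far below the other 4, at 8151 ± 663 (SD, n = 2) against 17435 ± 1052 in vehicle and 15890 ± 823 under interleukin. The log2 change was -1.10 ± 0.10 (adjusted p = 0.000407), 46.7% of vehicle, while interleukin differed from vehicle by -0.13 (95% interval -0.35 to 0.08, adjusted p = 0.39). The direct comparison gave 0.96 ± 0.10 higher under interleukin than under hydrogen peroxide (adjusted p = 0.000149), 1.95-fold.

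The size of the change differed among the 6 Igfbp4 probe sets. On 1421992_a_at the cultures read 34063 and 36875 in vehicle, 22912 and 19365 under hydrogen peroxide and 34671 and 39635 under interleukin, a change of -0.75 ± 0.10 under hydrogen peroxide (adjusted p = 0.00304). On the brightest, 1423756_s_at, they read 50576 and 55259 in vehicle, 42644 and 38260 under hydrogen peroxide and 53137 and 63877 under interleukin, a change of -0.39 ± 0.10 (adjusted p = 0.0433). On all 6 both hydrogen peroxide cultures lay below both vehicle cultures and both interleukin cultures. The changes of 1423757_x_at and 1437406_x_at were -0.70 (adjusted p = 0.0233) and -0.42 (adjusted p = 0.0354), and 1437405_a_at was not called (-0.31, adjusted p = 0.0546). That one was called after centring on the 75th percentile (0.0444), with a stricter filter (0.0462), in a fit of the 4 compared arrays (0.0256) and without interleukin culture 1 (0.0236) or 2 (0.025). All 6 were called higher under interleukin than under hydrogen peroxide, by 0.34 to 0.96, and none was called between interleukin and vehicle (differences of -0.13 to 0.17), with 0 at an unadjusted p under 0.05. The calls on 1421991_a_at and 1421992_a_at held in all 4 fits that left out 1 compared array, in both comparisons. The hydrogen peroxide calls on 1423756_s_at, 1423757_x_at and 1437406_x_at were lost without vehicle culture 1 (0.0913 to 0.124), vehicle culture 2 (0.165 to 0.279) or hydrogen peroxide culture 2 (0.104 to 0.179), and that on 1423756_s_at also without culture 1 (0.08). Against interleukin, calls on 1437405_a_at were lost without hydrogen peroxide culture 1 (0.0727) or 2 (0.152) or interleukin culture 2 (0.13), on 1437406_x_at without hydrogen peroxide culture 2 (0.0924) or interleukin culture 2 (0.0667), and on 1423756_s_at without hydrogen peroxide culture 2 (0.0667). Without a trend of the spread on signal, all 5 hydrogen peroxide calls were lost (0.0526 to 0.227), as were 4 of the 6 between the treatments (0.0993 to 0.204). Between the treatments, those on 1421991_a_at (0.0229) and 1421992_a_at (0.0492) were kept. With no filter on low signal, the hydrogen peroxide calls on 1423756_s_at (0.127), 1423757_x_at (0.0629) and 1437406_x_at (0.105) were lost. The call on 1437405_a_at between the treatments was lost in 3 of the 11 alternatives that kept all 4 compared arrays.

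Igfbp6, which prefers IGF-II, fell by a smaller amount under both treatments. Its 1 probe set, 1417933_at, read 31976 and 33478 in vehicle, 26278 and 22091 under hydrogen peroxide and 23736 and 27293 under interleukin. All treated cultures were below both vehicle cultures, and the treatments overlapped. The log2 change was -0.36 ± 0.10 under interleukin (adjusted p = 0.0344), 77.8% of vehicle, and -0.44 ± 0.10 under hydrogen peroxide (adjusted p = 0.0318), 73.6%. Interleukin differed from hydrogen peroxide by 0.08 (95% interval -0.14 to 0.30, adjusted p = 0.69). Both calls were close to the threshold: the interleukin call was lost without vehicle culture 1 (0.118), vehicle culture 2 (0.189) or interleukin culture 1 (0.171), and the hydrogen peroxide call without vehicle culture 1 (0.129), vehicle culture 2 (0.208) or hydrogen peroxide culture 2 (0.156). Both were also lost without the trend (0.174 and 0.192) and without the filter on low signal (0.0885 and 0.0852).

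Igfbp3, the main carrier of IGFs in blood, and Igfbp5, a binding protein that also attaches to matrix, were lower on average in treated cultures but passed no test. Igfbp3 on 1423062_at read 1709 and 1383 in vehicle, 985 and 850 under hydrogen peroxide and 813 and 1202 under interleukin. The treated cultures were all below vehicle, with changes of -0.75 ± 0.21 under hydrogen peroxide (adjusted p = 0.0669) and -0.64 ± 0.21 under interleukin (adjusted p = 0.0668). Leaving out interleukin culture 2 brought both to the called side (0.035 and 0.0241), and leaving out interleukin culture 1 did so for hydrogen peroxide (0.0315), as did centring on the 75th percentile (0.0462). The second Igfbp3 probe set, 1458268_s_at, gave -0.71 (adjusted p = 0.109) and -0.47 (adjusted p = 0.214). Igfbp5 on 1452114_s_at read 3632.5 and 4443 in vehicle, 2805.5 and 2431 under hydrogen peroxide and 3059 and 4598 under interleukin. Hydrogen peroxide was below the rest, by -0.62 ± 0.19 against vehicle (adjusted p = 0.0794), and interleukin straddled vehicle at -0.10 (95% interval -0.51 to 0.31, adjusted p = 0.768). The hydrogen peroxide difference was called without interleukin culture 1 (0.0276) or 2 (0.03). On the dimmer 1422313_a_at the changes were -0.72 (adjusted p = 0.103) and -0.50 (adjusted p = 0.182). Igfbp2 lay below the filter and was not tested, at 174 and 94.4 in vehicle, 175 and 89.2 under hydrogen peroxide and 127 and 166.5 under interleukin, so the groups overlapped.

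Igfbp7 was higher than vehicle under interleukin and lower under hydrogen peroxide, which is the pattern it was selected on, so these values are a description. On 1423584_at the signal was 18916 and 19242 in vehicle, 13290 and 10658 under hydrogen peroxide and 36227 and 38824 under interleukin. The groups did not overlap, with means of 19079 ± 230 (SD, n = 2), 11974 ± 1861 (SD, n = 2) and 37526 ± 1836 (SD, n = 2). The difference from vehicle on the log2 scale was 0.98 under interleukin, 1.97-fold, and -0.68 under hydrogen peroxide, 62.4% of vehicle, and interleukin was 3.15-fold above hydrogen peroxide. On 1423585_at, a dimmer probe set, the cultures read 620.3 and 686 in vehicle, 281 and 241 under hydrogen peroxide and 1560.3 and 1581 under interleukin. The same order was seen with larger differences, 1.27 under interleukin (2.41-fold) and -1.33 under hydrogen peroxide (39.8% of vehicle). The third, 1437804_at, lay below the filter at signals of 16.8 to 34.7 and did not show this order: both interleukin cultures, at 19.8, were under both vehicle cultures, at 34.7 and 25.1. Leaving out a hydrogen peroxide culture moved the lower side between -0.84 and -0.52 on 1423584_at and between -1.44 and -1.22 on 1423585_at. Over the array 40 of 22519 tested probe sets (0.178%) were called in opposite directions under the 2 treatments, a share from which nothing can be read about a gene picked for that pattern. Igfbp7 itself was given no call, and no tested probe set of the other family genes was called in opposite directions.

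**Figure D3:**
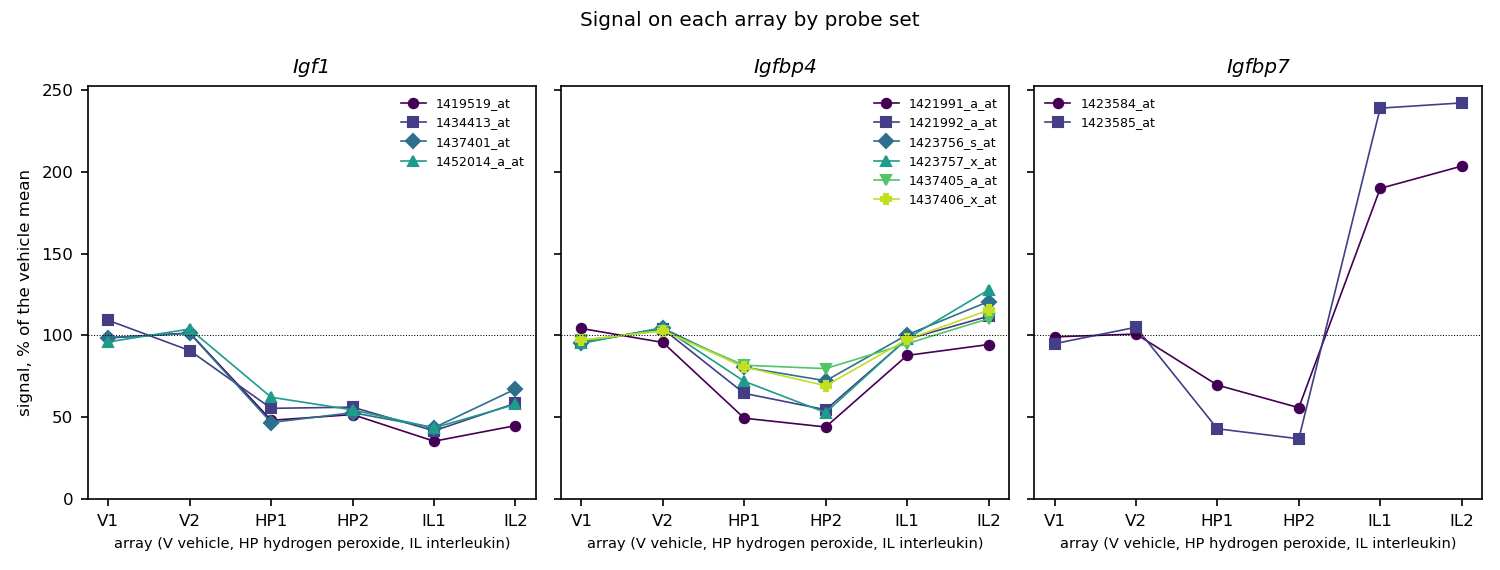
Signal on each array as a percent of the vehicle mean of the same probe set (linear axis), for the tested probe sets of Igf1 (4), Igfbp4 (6) and Igfbp7 (2), with lines joining the values of 1 probe set. Igf1 lies below 100% in all 4 treated cultures, Igfbp4 lies low in the hydrogen peroxide cultures alone, and Igfbp7 lies low under hydrogen peroxide and high under interleukin.

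The 5 genes whose brightest probe set was most like that of Igfbp7 over the 6 arrays, among 1780 candidates of sufficient spread, were Dio2 (Pearson r = 0.995), Ccl8 (0.995), Osr2 (0.992), Fbln1 (0.991) and Mgst1 (0.991). The correlations are a description over 6 arrays in 3 groups, and the arrays share the treatments that set the pattern. Ccl8, a chemokine, read 6350 and 5831 in vehicle, 3518 and 2325 under hydrogen peroxide and 23175 and 30112 under interleukin. Dio2, which activates thyroid hormone, read 1889 and 2030.5 in vehicle, 1300 and 1035 under hydrogen peroxide and 3731.5 and 4770 under interleukin. Fbln1, a secreted matrix protein, read 5107.5 and 5830 in vehicle, 3177 and 2771 under hydrogen peroxide and 9497 and 10821.5 under interleukin. Their order of groups, hydrogen peroxide lowest and interleukin highest, follows from how they were picked.

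The rest of the pathway was taken from a list of 70 genes arranged by role, of which 65 had a probe set of their own and 56 passed the filter on their brightest one. Under interleukin 7 of the 56 rose, 2 fell and 47 were not called (20 at an unadjusted p under 0.05). With 1 probe set per gene, 9.78% of the 10892 genes tested were called higher and 6.61% lower in that comparison. Under hydrogen peroxide 2 rose, 5 fell and 49 were not called (10 unadjusted), against 4.08% higher and 2.91% lower over all genes. Between the treatments 7 were higher under interleukin, 0 lower and 49 were not called (16 unadjusted), against 6.30% higher and 4.06% lower over all genes. The median log2 change of the 56 was 0.12, 0.05 and 0.07 in these comparisons, beside 0.03, 0.06 and -0.04 over all genes. The counts under interleukin lie near the background shares, and since the list was written with results known, nothing is read from these counts about the pathway. Without a trend of the spread on signal in the fit, 3, 0 and 1 calls were left (16, 10 and 15 at an unadjusted p under 0.05). Of the 23 calls, 4 held in every fit that left out 1 compared array, those of Grb14 and of Ghr in 2 comparisons each. The other 19 were lost in at least 1 such fit, with the highest adjusted p from 0.0541 (Jak2 under interleukin, without vehicle culture 2) to 0.319 (Tmem219 under interleukin). Calls under interleukin numbered 3 without vehicle culture 1, 1 without vehicle culture 2 and 4 without interleukin culture 1. Under hydrogen peroxide they numbered 2 without vehicle culture 1 and 1 without vehicle culture 2 or either hydrogen peroxide culture, and between the treatments 2 and 3 without hydrogen peroxide culture 1 and 2.

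Among receptor adaptors and inhibitors, 11 of 13 genes were tested. Grb14, an adaptor that inhibits the insulin receptor kinase, rose under interleukin, from 714 and 736 in vehicle to 2449 and 1976, and read 702.5 and 639 under hydrogen peroxide. The interleukin cultures stood alone, 1.60 ± 0.17 above vehicle on the log2 scale (adjusted p = 0.000197) and 1.71 ± 0.17 above hydrogen peroxide (adjusted p = 0.000158). Irs1, the substrate through which the IGF-I receptor engages PI3 kinase, fell under interleukin to 1308 and 1190 from 1748 and 2777 in vehicle (-0.82 ± 0.21, adjusted p = 0.0235), and read 1828 and 2256 under hydrogen peroxide. Sh2b2, an adaptor of receptor tyrosine kinases, rose from 258 and 222 in vehicle to 477 and 469 under interleukin (0.98, adjusted p = 0.0243) and to 481 and 522.5 under hydrogen peroxide (1.07, adjusted p = 0.0361). Grb10, Sos1, Shc1 and Ptpn1 were not called under interleukin on their brightest probe sets, but some dimmer ones were. Grb10 was lower on 1425457_a_at (-1.63, limma adjusted p = 0.0119) and 1430164_a_at (-1.53, 0.00265). Sos1 was lower on 1421885_at (-1.48, 0.0488) and 1421886_at (-1.63, 0.0238), and not called on 1421884_at (-0.46, 0.203). Shc1 was lower on 1422853_at (-0.56, 0.00769), and Ptpn1 was higher on 1438670_at (0.71, 0.0337). Insr, the insulin receptor and the 1 tested gene of its family, was not called under interleukin (0.51 ± 0.16).

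In the growth hormone axis all 5 genes were tested. Ghr, the growth hormone receptor, whose signal drives Igf1 transcription in many tissues, fell under hydrogen peroxide to 8101 and 8054 from 13115 and 12825 in vehicle, and read 13621 and 11994 under interleukin. The change was -0.68 ± 0.09 (adjusted p = 0.00356), 62.3% of vehicle, and interleukin was 0.66 ± 0.09 above hydrogen peroxide (adjusted p = 0.00158). The Ghr probe sets disagreed about interleukin: the brightest gave -0.02, while 1451501_a_at gave -0.58 (adjusted p = 0.00472) and 1451871_a_at gave -1.00 (adjusted p = 0.00446), both also called lower under hydrogen peroxide (-0.93 and -1.02). Neither of these dimmer probe sets was called between the treatments (0.36, limma, adjusted p = 0.0653, and 0.02, adjusted p = 0.956). Jak2, the kinase of that receptor, rose under interleukin, from 2575 and 2459 to 4182 and 3725 (0.65 ± 0.12, adjusted p = 0.00493), and was 0.58 above hydrogen peroxide (adjusted p = 0.0145). A dimmer Jak2 probe set, 1421065_at, was not called. It gave 0.46 against vehicle (limma, adjusted p = 0.0816) and 0.47 against hydrogen peroxide (adjusted p = 0.105).

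Among proteases of binding proteins and their inhibitors, 7 of 8 genes were tested. Pappa, the protease that cuts IGFBP4, fell under hydrogen peroxide, from 1604 and 1494 to 925 and 732 (-0.91 ± 0.21, adjusted p = 0.034). Under interleukin this brightest Pappa probe set was not called (-0.51, limma, adjusted p = 0.135). A second Pappa probe set, 1432591_at, gave -1.08 under hydrogen peroxide (adjusted p = 0.0106) and -0.95 under interleukin (adjusted p = 0.00738), so the probe sets disagreed on the interleukin call. Stc1, a stanniocalcin that inhibits pappalysins, fell under hydrogen peroxide from 2703 and 2641 to 1090.4 and 935 (-1.40 ± 0.28, adjusted p = 0.0171). Its interleukin cultures lay apart from each other, at 1047.5 and 2207. Pappa2, the related protease, fell under interleukin from 1136 and 1033 to 660 and 742 (-0.63 ± 0.18, adjusted p = 0.0393), and Adam9 was 0.35 higher under interleukin than under hydrogen peroxide (adjusted p = 0.0171).

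Of PI3 kinase, Akt and FoxO genes 16 of 18 were tested. Trib3, a pseudokinase that binds Akt and is also a known stress-response gene, rose under hydrogen peroxide from 1374 and 1166 to 2716 and 2861 (1.14 ± 0.25, adjusted p = 0.0256). Under interleukin it read 2537 and 1330.5, which overlapped vehicle and lay below both hydrogen peroxide cultures. Gsk3b, a kinase that Akt inhibits, fell under hydrogen peroxide (-0.48, adjusted p = 0.0297), but its probe sets disagreed, with 1437001_at at 0.63 (adjusted p = 0.0641). Under interleukin 1437001_at was called higher (0.64, limma, adjusted p = 0.0329), and the brightest was not called (-0.34, 0.0573). Gsk3a (0.42, adjusted p = 0.0203) and the transcription factor Foxo3 (0.66, adjusted p = 0.0267) rose under interleukin. Foxo1, a transcription factor that Akt holds out of the nucleus, was 0.56 higher under interleukin than under hydrogen peroxide (adjusted p = 0.0192), and its other probe sets gave 0.70 (adjusted p = 0.00669) and 0.61 (adjusted p = 0.0226). Against vehicle its brightest probe set was not called. Foxo1 1416981_at was called lower under hydrogen peroxide (-0.60, limma, adjusted p = 0.0228) and 1416982_at higher under interleukin (0.46, 0.0485). Akt2 was called lower under interleukin on the dimmer 1421324_a_at (-0.63, 0.0198), and not on its brightest (-0.03, 0.913) or on 1455703_at (0.71, 0.171).

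The remaining roles held few calls. In the mTOR complex list 1 of 9 tested genes was called, Deptor, an mTOR inhibitor, which fell under hydrogen peroxide (-0.54, adjusted p = 0.0463). In the mannose 6-phosphate pathway, which makes the lysosomal tag that the IGF-II receptor also binds, 1 of 4 was called, Gnptab, at 0.66 above vehicle under interleukin (adjusted p = 0.0112) and 0.65 above hydrogen peroxide (adjusted p = 0.0192). The other tested Gnptab probe sets, 1452461_a_at and 1456620_at, were not called. Against vehicle they gave 0.16 (limma, adjusted p = 0.709) and 0.35 (adjusted p = 0.192) under interleukin. Against hydrogen peroxide they gave 0.47 (adjusted p = 0.265) and 0.59 (adjusted p = 0.0544). Of cell surface partners of binding proteins, Tmem219, a receptor for IGFBP3, rose under interleukin (0.59, adjusted p = 0.0483), and Lrp1 was 0.71 higher under interleukin than under hydrogen peroxide (adjusted p = 0.0216). A dimmer Tmem219 probe set, 1457243_at, gave -0.23 under interleukin (limma, adjusted p = 0.747). A dimmer Lrp1 probe set, 1442849_at, gave 0.48 between the treatments (adjusted p = 0.233). Of IGF2 mRNA binding proteins Igf2bp3 was tested, and its probe sets disagreed. The brightest was not called under interleukin (0.34 ± 0.15), while 1433732_x_at (1.38, adjusted p = 0.000889), 1433731_at (0.81, adjusted p = 0.0392) and 1422611_s_at (0.60, adjusted p = 0.0421) were called higher, and 1450687_at (0.80, adjusted p = 0.132) and 1453957_a_at (-0.13, adjusted p = 0.743) were not. Under hydrogen peroxide 1433732_x_at was called higher as well (1.12, adjusted p = 0.00902). Igfbp1, Igfbpl1 and Igfals, the other binding protein genes and the acid-labile subunit, all lay below the filter, with signals of 7.2 to 39.2 on the 6 arrays.

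**Figure D4:**
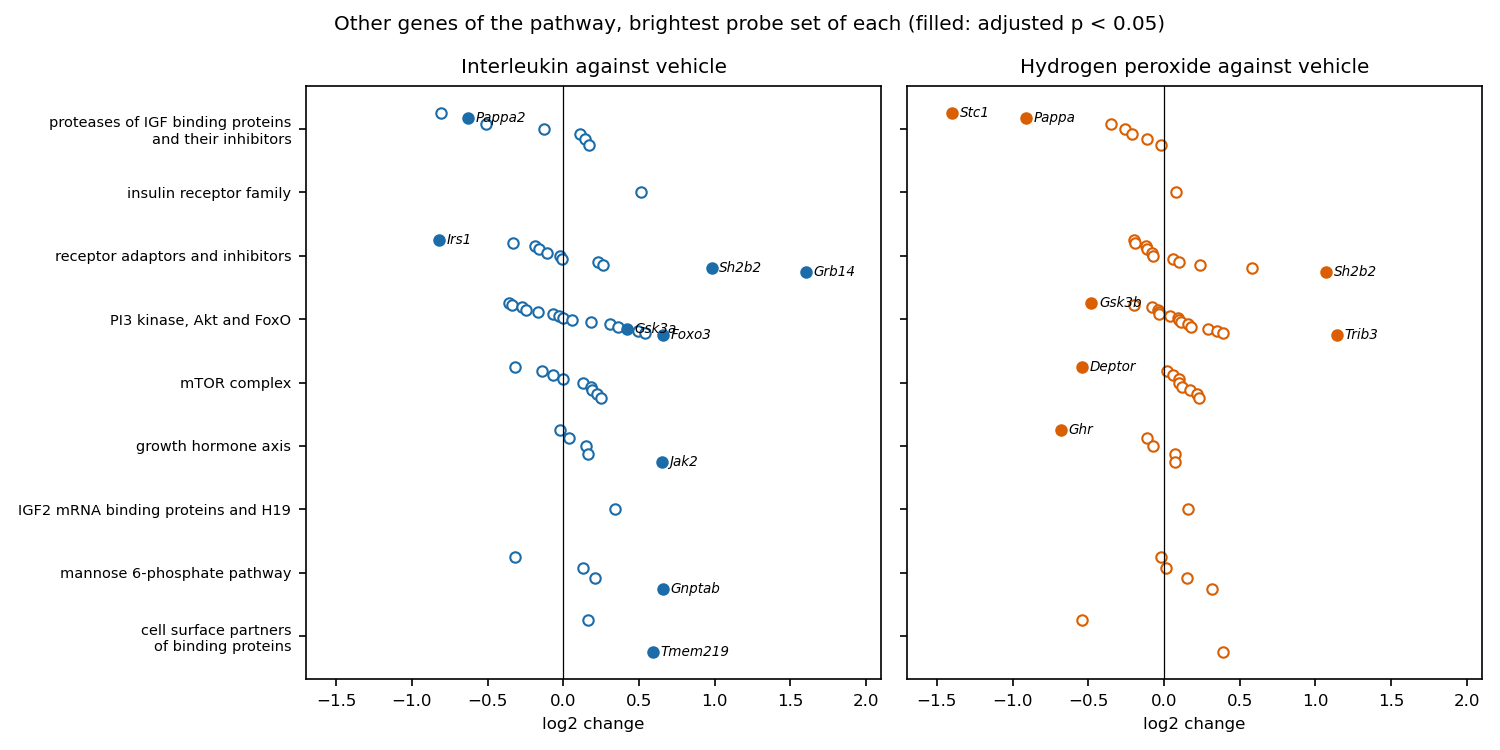
Log2 change against vehicle (horizontal axis) of the brightest probe set of the 56 tested pathway genes under interleukin and hydrogen peroxide, grouped by role, with filled and named points for an adjusted p under 0.05. Grb14 lies furthest right under interleukin at 1.60, and Stc1 furthest left under hydrogen peroxide at -1.40.

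The arrays were alike in overall brightness, with median signals of 192 to 232, and the correlation of log2 signal over all probe sets was 0.934 to 0.941 within groups and 0.924 to 0.935 between groups. The 3' to 5' signal ratio, which rises as RNA degrades, was for beta-actin 1.22 and 1.26 in vehicle, 1.35 and 1.32 under hydrogen peroxide and 1.46 and 1.55 under interleukin. The ratio for Gapdh was 0.825 to 0.873 on all arrays, and its spread for Tfrc and Pcx was wider (1.85 to 3.95 and 1.59 to 2.89), with both vehicle cultures lowest. The part of this difference in the changes of Igf1, Igfbp4, Igfbp6 and Igfbp7 was not tested. Of the markers of renin cells, 4 of 6 had a probe set, 3 passed the filter, and Ren1 is not analysed here. Kcnj8 and Crip1 fell under hydrogen peroxide (-1.65 and -0.66), Crip1 also under interleukin (-0.51). Kcnj8 was not called under interleukin (-0.24, limma, adjusted p = 0.495). Aldh1a1 was not called under hydrogen peroxide (-0.12, adjusted p = 0.875) or interleukin (0.05, adjusted p = 0.945). The sum of the 4 markers with a probe set, which is mostly Crip1 and so describes that gene more than the list, was 19937 to 21485 in vehicle, 11044 to 14215 under hydrogen peroxide and 14052 to 16209 under interleukin. Of 9 leukocyte and macrophage markers with a probe set 3 passed the filter, and Cd68 and Cd14 rose under interleukin, Cd68 also under hydrogen peroxide. The remaining tested marker, Csf1r, was not called under interleukin (0.11, limma, adjusted p = 0.803) or hydrogen peroxide (0.30, adjusted p = 0.489). The sum of the 9 markers, mostly Cd14, was 3901 to 3920 in vehicle, 4571 to 4717 under hydrogen peroxide and 6634 to 7343 under interleukin. The defining marker Ptprc was below the filter at 21.3 to 126. Smooth muscle and pericyte markers, mostly Acta2 and Pdgfrb, summed to 16956 to 17265, 18888 to 19293 and 24910 to 32238, with 3 of 4 tested members higher under interleukin. Those sums describe these 2 genes more than the list. The remaining tested member, Cspg4, was not called under interleukin (-0.63, limma, adjusted p = 0.351). Below the filter and untested, Cnn1 (-1.23), Des (-0.31) and Rgs5 (-0.12) were lower on average under interleukin, and Myh11 (1.30) was higher. Of 8 endothelial markers 1 was tested, Kdr, which fell under interleukin and makes up nearly all of their sum of 13552 to 15981, 10922 to 11709 and 8490 to 11958. Below the filter and untested, Pecam1 (14.7 and 16.9 in vehicle, 23.7 and 48.7 under interleukin), Cdh5 (55.2 and 75.8, 110 and 206) and Tek (61.9 and 139, 164 and 330.5) lay the other way. Of 10 epithelial markers 2 were tested and 0 called, with sums of 1232 to 1882. Hepatocytes supply most circulating IGF-I. All 4 hepatocyte markers with a probe set lay below the filter on these arrays, with sums of 163 to 244.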

How the data were processed

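Expression of As4.1 cells was measured on 6 Affymetrix Mouse Genome 430 2.0 arrays, 2 per group. The deposited values are linear intensities, 1 signal per probe set, which the authors computed with MAS5 per the submitters' processing notes (no version was named). Every array had a mean of 1500.01 after trimming 2% at each end. The number of arrays limits the precision. Probe sets were named from the platform annotation, with symbols brought up to date by a RefSeq table (34741 of 34945 probe sets with 1 symbol matched; 932 had several symbols and 9160 none). Promoter windows came from RefSeq (GRCm38.p6).

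Signals were log2 transformed with no pseudocount, 64 control probe sets were left out, and the 22519 probe sets at or above the median mean log2 signal (geometric mean 193.7) were tested with limma 3.58.1 in R 4.3.3 (eBayes on all 6 arrays, the prior variance following signal, Benjamini-Hochberg over all tested, threshold 0.05). Percents of vehicle and folds come from the fitted log2 change; group means are arithmetic. A gene outside the family is represented by its brightest probe set. The method was tested on simulated data. Members and gene lists were chosen with earlier results of these data known; lists were written from general knowledge. All probe sets of the family are named. Of the pathway list, up to 4 called genes of smallest p per role and comparison are named. Some other tested probe sets of pathway genes were added after their values were seen. Alternatives were normalization, centring, pseudocount, filter, trend, probe set type, arrays fitted, the replicate block and leaving out each array; those on pathway genes were added after the data were seen. Detection calls were not used.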

Additional observations from a re-analysis of the deposited data

How the results depend on the processing

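Against vehicle the log2 changes of the tested probe sets of Igf1, Igf2, Igfbp3, Igfbp6 and Igfbp7 kept their direction under every alternative run. For Igfbp7 that direction is the one it was selected on. Probe sets below the filter were not followed in the alternatives. Of these, Igf2 1415931_at (0.36) and Igfbp7 1437804_at (-0.58) lay opposite to the tested ones of their gene under interleukin. Without a trend of the spread on signal, calls over all probe sets were 1783 under interleukin, 57 under hydrogen peroxide and 716 between the treatments, those of the family 3, 0 (16 unadjusted) and 2, and those of pathway genes 3, 0 (10 unadjusted) and 1. Without the filter on low signal, hydrogen peroxide calls were 762 over all, 6 in the family and 3 in the pathway. Without probe sets that can bind several transcripts, 3 family calls were left between the treatments. Centring on the 75th percentile, or fitting only the 4 arrays compared, gave 13 family calls under hydrogen peroxide.

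With 1 array left out, calls over all probe sets ranged from 1554 to 3583 under interleukin, 235 to 1751 under hydrogen peroxide and 839 to 1919 between the treatments. Family calls ranged from 3 to 6, 3 to 13 and 3 to 7, and pathway calls from 1 to 10, 1 to 8 and 2 to 8. The log2 changes whose direction turned, none of them called, ranged as follows with 1 array left out. Under interleukin these were Igf1r 1428967_at (-0.15 to 0.53), Igf1r 1446303_at (-0.31 to 0.33, and -0.02 after quantile normalization), Igf2r 1424112_at (-0.18 to 0.08), Igfbp4 1421992_a_at (-0.03 to 0.16), 1423757_x_at (-0.03 to 0.36), 1437405_a_at (-0.07 to 0.14) and 1437406_x_at (-0.04 to 0.21), and Igfbp5 1452114_s_at (-0.39 to 0.19). Under hydrogen peroxide they were Igf1r 1428967_at (-0.35 to 0.33), 1446303_at (-0.75 to 0.26) and 1452982_at (-0.25 to 0.18), and Igf2r 1424112_at (-0.20 to 0.05). Between the treatments, where the family members recomputed were Igf1, Igfbp4 and Igfbp6, they were Igf1 1434413_at (-0.42 to 0.07) and 1437401_at (-0.19 to 0.44), and Igfbp6 (-0.05 to 0.20). The cause of these changes was not tested.

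The labels do not say whether arrays of the same number were handled together. Deviations of same-numbered arrays correlated at 0.11 (vehicle and hydrogen peroxide), 0.05 (vehicle and interleukin) and -0.13 (hydrogen peroxide and interleukin). These values show no strong shared shift but cannot tell whether the arrays were paired. With the number as a replicate block, calls were 3342, 1170 and 1756 over all probe sets, 5, 8 and 6 in the family and 8, 5 and 7 in the pathway; 2 Igfbp4 calls under hydrogen peroxide were lost (adjusted p 0.0519 and 0.0508).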
